A study of Mus musculus with 8 samples.

Results

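The collagen genes were the protein-coding genes whose symbols have the form Col, a number, the letter a and a number. They numbered 44 of the 21951 protein-coding genes of GENCODE M21. Of these, 11 were fibrillar collagens, 8 were collagens of the basement membrane (the type IV chains with *Col15a1* and *Col18a1*), and the other 25 included fibril-associated, beaded-filament, network-forming, anchoring and transmembrane collagens. Chromatin accessibility had been profiled by ATAC-seq, in which Tn5 transposase cuts and tags open DNA, in hearts of mouse embryos at E10.5. There were 4 *Chd4-CMko* and 4 WT samples. In *Chd4-CMko* embryos the chromatin remodeler gene *Chd4* is deleted in cardiomyocytes by a Cre under *Tnnt2*, a cardiac troponin T gene. The study's methods give a cross only for the E10.5 embryos used in immunohistochemistry, female *Chd4* fl/fl with male *Tnnt2* Cre/+; *Chd4* fl/+. They name the controls as littermates. The alleles of the WT embryos are not given in the sources used here. The series' design text and the study's methods give 3 hearts per pooled sample at E10.5, while the sample protocol gives 4. Whole hearts were dissociated and strained, a step the submitters describe as removing connective tissue. No cell type was sorted, so cells in which the Cre is not active, such as endocardial, epicardial and cushion cells, could be in every pool, and a change within a cell type cannot be told apart from a change in the share of that cell type.

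Collagens are proteins of the extracellular matrix built from chains that wind around each other in a triple helix. Fibrillar collagens assemble into the tensile fibres of connective tissue, and in the embryonic heart they are laid down mostly by mesenchymal cells of the valve cushions and by cells derived from the epicardium. Type IV collagen forms the sheet-like network of the basement membrane under endothelium and around cardiomyocytes. Transmembrane collagens stay anchored in the cell membrane, and fibril-associated collagens decorate the surface of fibrils.

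The deposited data are a pair of peak lists. The list named for *Chd4-CMko* held 12991 peaks, taken here as gained, and the list named for WT held 2745 peaks, taken here as lost. Every peak is 151 bp wide and carries 1 score, and the median score was 62.5 for gained and 36.8 for lost peaks. A list combines the samples of a genotype, so there is no value per sample, no spread between replicates and no test between genotypes. The intervals given below cover counting error only, and neighbouring peaks and genes are not independent. A peak was tied to a collagen gene when the nearest protein-coding transcription start site (TSS) was that gene's, or when the peak lay in the gene body or within 10 kb of it. For the targeted gene, *Chd4*, the same rule found 2 gained peaks and 0 lost peaks, which does not measure the deletion.

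At 5 collagen genes a gained peak lay within 100 bp of an own TSS (11.4%, beside 4.58% of all protein-coding genes). These are shown because they are the sites where a gained peak and the start of a collagen gene coincide. Each stretch is the part of the peak outside annotated exons, read 5′ to 3′ on the strand of the gene from the GRCm38 (mm10) genome. Capitals mark consensus strings on either strand: CCAAT or ATTGG for the factor NFY, GGGCGG or CCGCCC for the GC box of SP and KLF factors, and a 12-base string for CTCF made of CC, any 3 bases, AG, any 2 bases and GGC, or its reverse complement. A match is a description of the letters and not a measured binding site.
*Col1a1*, chr11:94936125-94936223, plus strand: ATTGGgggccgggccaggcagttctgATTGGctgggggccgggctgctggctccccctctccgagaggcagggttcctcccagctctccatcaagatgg
*Col27a1*, chr4:63213926-63214003, plus strand: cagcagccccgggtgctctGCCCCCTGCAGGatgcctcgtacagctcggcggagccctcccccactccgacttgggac
*Col5a3*, chr9:20815068-20815195, minus strand: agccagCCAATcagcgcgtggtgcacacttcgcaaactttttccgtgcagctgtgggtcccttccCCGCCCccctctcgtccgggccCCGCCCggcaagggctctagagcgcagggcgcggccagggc
*Col13a1*, chr10:61979109-61979217, minus strand: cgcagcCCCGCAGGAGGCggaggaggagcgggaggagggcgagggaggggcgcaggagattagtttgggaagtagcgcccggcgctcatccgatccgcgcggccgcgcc
*Col7a1*, chr9:108953445-108953585, plus strand: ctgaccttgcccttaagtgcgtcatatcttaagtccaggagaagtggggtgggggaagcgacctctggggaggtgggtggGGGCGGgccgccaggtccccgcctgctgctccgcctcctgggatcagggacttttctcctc

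The *Col1a1* stretch held the NFY string at 2 places, and the *Col5a3* stretch held it once together with 2 GC boxes. The *Col27a1* and *Col13a1* stretches each held the CTCF string, and the *Col7a1* stretch held a single GC box. In a set of 32851 promoter sequences, from 250 bp before to 50 bp after the start, the NFY string was in 37.4%. The GC box was in 35.7% of them and the CTCF string in 8.61%. Those sequences are longer than the stretches shown, so the shares are not matched to them. The GC content of the stretches shown ran from 64.5% in *Col7a1* to 74.3% in *Col13a1*.

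Gained peaks were present at 23 of the 44 collagen genes (52.3%, Wilson 95% interval 37.9 to 66.2), and 37.4% of all protein-coding genes had one by the same rule. Lost peaks were tied to 8 collagen genes (18.2%, 9.51 to 32.0), beside 10.8% of all protein-coding genes. Of the 9 lost peaks, 5 lay more than 10 kb from the gene body and were tied by the nearest protein-coding TSS alone. The same held for 15 of the 66 gained peaks. Of the collagen genes, 19 had gained peaks alone (43.2%, beside 31% of all protein-coding genes) and 4 had lost peaks alone (9.09%, beside 4.41%). Both kinds were found at 4 (9.09%, beside 6.36%) and neither at 17 (38.6%, beside 58.2%). The collagen genes held 66 gained and 9 lost peaks, so that 88.0% of their listed peaks were gained (78.7 to 93.6), beside 82.6% of all 15736 listed peaks. The share of all listed peaks lies inside the interval of the collagen share.

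**Figure D1:**
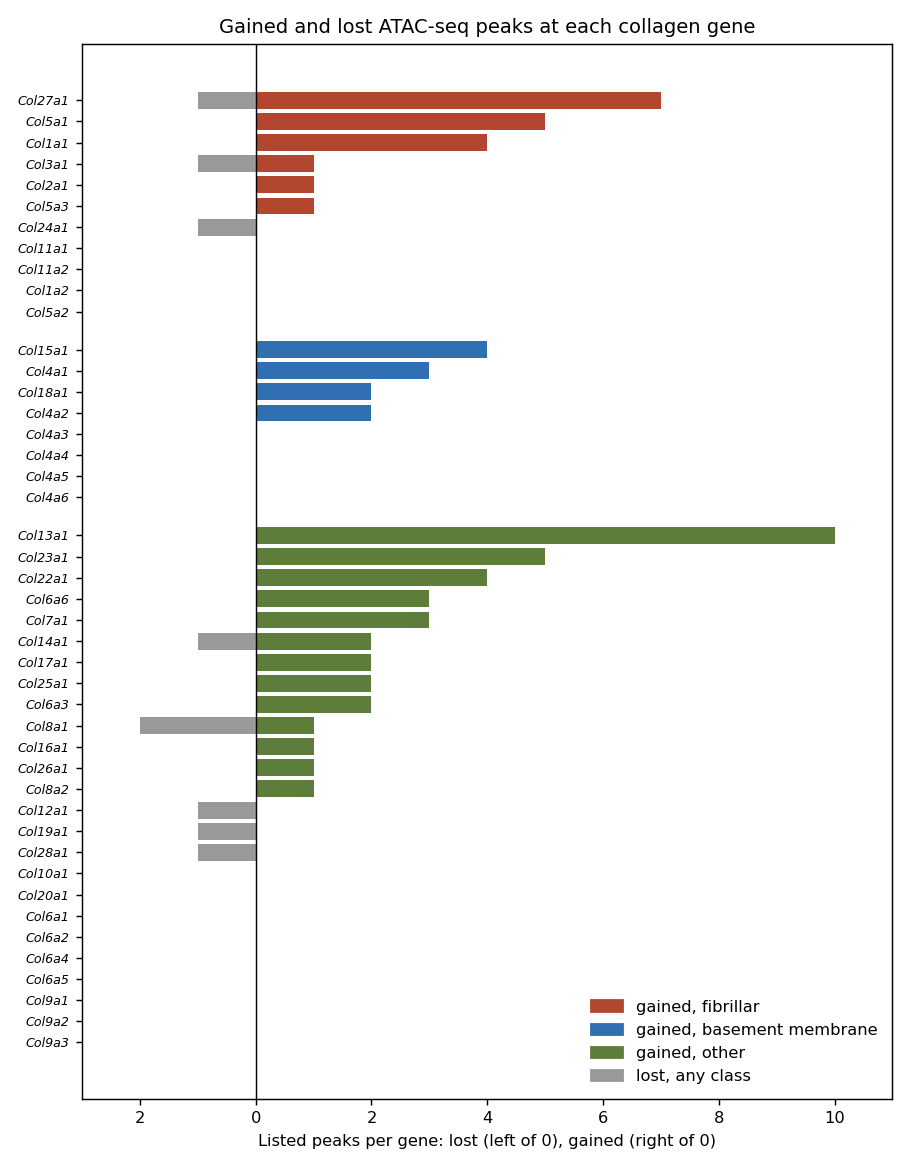
Number of listed ATAC-seq peaks at each of the 44 collagen genes, with gained peaks to the right of 0 and lost peaks (grey) to the left, grouped as fibrillar (red), basement membrane (blue) and other (green). *Col13a1* has the longest bar with 10 gained peaks, and the basement membrane genes have no lost peak. The peak shared by *Col4a1* and *Col4a2* is counted once for each.

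The median length of the collagen genes was 114 kb, beside 17.4 kb for all protein-coding genes, so the shares were also taken within classes of length. Among genes under 50 kb, 7 of 15 collagen genes had a gained peak (46.7%), beside 30.7% of protein-coding genes of that length. Between 50 and 150 kb the counts were 11 of 18 (61.1%), beside 54.4%. At 150 kb or more the order turned, with 5 of 11 collagen genes (45.5%) beside 73.3%. For lost peaks the shares in the same order of length were 6.67% beside 5.93%, 16.7% beside 20.6% and 36.4% beside 42.9%, so the higher share over all lengths was not present in the longer genes. Across the 44 collagen genes the number of gained peaks and gene length had a Spearman's rho of 0.171, and across all protein-coding genes it was 0.312. Genes are not independent replicates, so no p is given.

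Counted per length, the collagen gene bodies with 10 kb on either side held 52 gained peaks in 6.18 Mb, or 8.42 per Mb (exact Poisson 95% interval 6.29 to 11). The same density over all protein-coding genes was 6.78 per Mb (6.64 to 6.93), which is inside the collagen interval. Without *Col13a1*, the gene with the most gained peaks, the collagen density was 7.32 per Mb (5.32 to 9.82). Lost peaks had a density of 0.648 per Mb (0.176 to 1.66) at collagen genes and 1.41 per Mb at all protein-coding genes, a value inside the collagen interval.

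**Figure D2:**
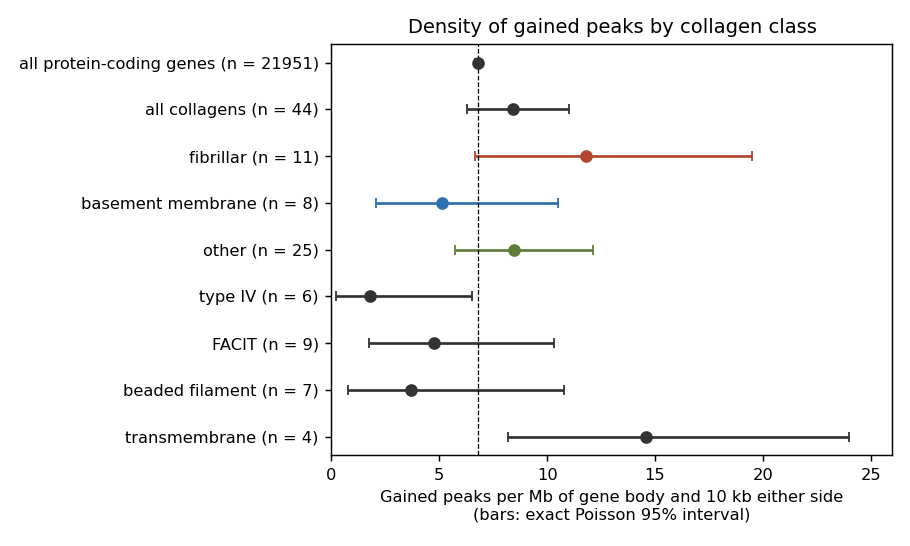
Gained peaks per Mb of gene body with 10 kb on either side, for all protein-coding genes, all collagens, the 3 classes and 4 structural groups, with exact Poisson 95% intervals (counting error only). The dashed line marks the value over all protein-coding genes (6.78). Of the groups drawn, the type IV interval (from 2 peaks) lies below that line and the transmembrane interval above it, the latter with *Col13a1* included. The anchoring group, which is *Col7a1* alone, is not drawn, and its interval (12.1 to 171) is also above the line.

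The 3 classes had similar shares of genes with a gained peak, and the number of genes in each leaves wide intervals. The share was 6 of 11 fibrillar genes (54.5%, 28 to 78.7), 4 of 8 basement membrane genes (50%, 21.5 to 78.5) and 13 of 25 other genes (52%, 33.5 to 70.0). The fibrillar share exceeded the basement membrane share by 4.55 percentage points (Newcombe 95% interval -34.4 to 41.9) and the other share by 2.55 points (-29.5 to 33). The basement membrane share differed from the other share by -2 points (-35.7 to 32). These intervals include large differences in both directions. Density was 11.8 gained peaks per Mb at fibrillar genes (6.63 to 19.5), 5.12 at basement membrane genes (lower bound 2.06, with an interval that includes the 6.78 over all protein-coding genes) and 8.47 at other genes (5.71 to 12.1), and the 3 intervals overlap.

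A gained peak lay within 3 kb of one of the gene's own TSSs at 10 collagen genes (22.7%), beside 12.3% of all protein-coding genes. These were 4 of the 11 fibrillar genes, 6 of the 25 other genes and 0 of the 8 basement membrane genes. The fibrillar share was 36.4 points above the basement membrane share, with an interval (-2.39 to 64.6) that includes 0. Fibrillar and other genes differed by 12.4 points (-16.4 to 43.3), and basement membrane and other genes by -24 points (-43.4 to 10.8). At 6 of the 10 genes the peak was near the 5′ end of the gene itself (13.6% of collagen genes, beside 8.13% of all protein-coding genes): *Col1a1*, *Col3a1*, *Col5a3*, *Col27a1*, *Col7a1* and *Col13a1*. At *Col16a1*, *Col17a1*, *Col23a1* and *Col26a1* it was near the start of a shorter transcript inside the gene. Lost peaks within 3 kb of an own TSS were found at 0 collagen genes, beside 1.23% of all protein-coding genes.

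**Figure D3:**
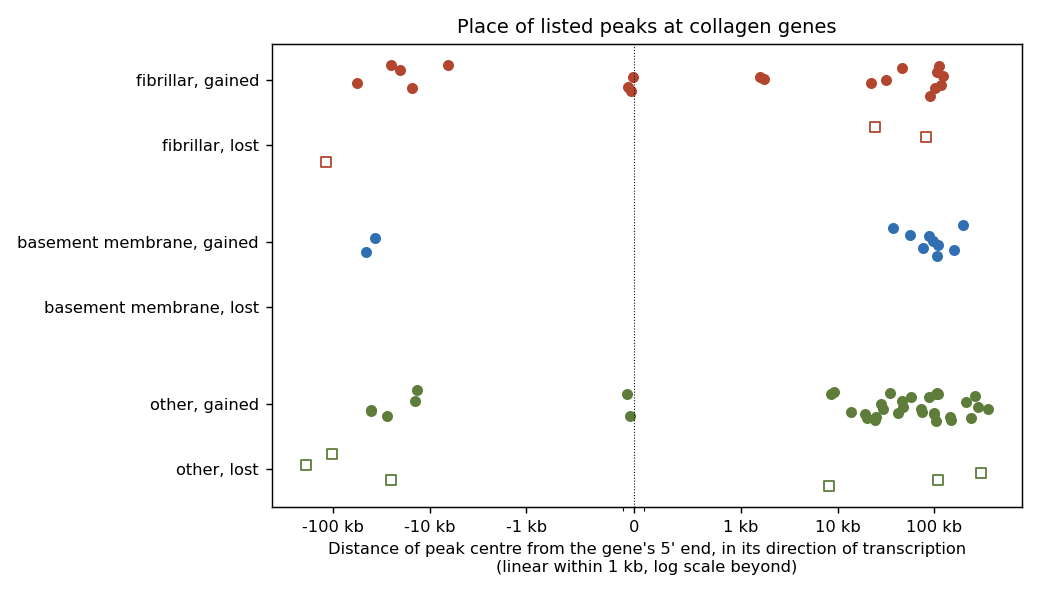
Distance of each gained (filled) and lost (open) peak from the 5′ end of its collagen gene, negative values being upstream, on an axis that is linear within 1 kb and logarithmic beyond. The fibrillar and other classes have gained peaks at the 5′ end, and the nearest gained peaks of the basement membrane class lie 37316 bp away. The vertical spread within a row only separates points.

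Among the fibrillar genes, *Col27a1* had the most listed peaks, with 7 gained and 1 lost. The gene, at chr4:63214004-63334991, encodes a minor fibrillar collagen best known from cartilage. A gained peak with a score of 205.5 was centred 3 bp from its 5′ end, and another in exon 1, with a score of 183.5, was centred 1712 bp into the gene and had a GC content of 82.1%, the highest of the 66 collagen peaks. A gained peak with a score of 118.5 lay 6502 bp upstream. Inside the gene, gained peaks lay in introns 12, 41 and 55 of 60, with scores of 195, 46.5 and 35.5, and the seventh, with a score of 70.5, was 3499 bp beyond the gene and nearer to the TSS of *Orm1*. The lost peak, with a score of 41, was in intron 5. *Col27a1* thus had peaks in both lists within 1 gene, and 191 of the protein-coding genes had as many gained peaks or more.

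The strongest gained peak of *Col27a1* away from its start and the lost peak of the same gene are shown because *Col27a1* is 1 of the 4 collagen genes with peaks in both lists, as are *Col3a1*, *Col14a1* and *Col8a1*. The lost peaks of *Col3a1* and *Col8a1* lay 104130 bp or more upstream. Capitals mark the GC box in the gained *Col27a1* peak and the TEAD string ACATTCC in the lost one.
*Col27a1*, intron 12, gained, chr4:63260583-63260733, plus strand: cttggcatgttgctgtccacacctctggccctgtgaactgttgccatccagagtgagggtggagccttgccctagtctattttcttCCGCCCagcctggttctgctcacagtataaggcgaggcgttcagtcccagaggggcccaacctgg
*Col27a1*, intron 5, lost, chr4:63238282-63238432, plus strand: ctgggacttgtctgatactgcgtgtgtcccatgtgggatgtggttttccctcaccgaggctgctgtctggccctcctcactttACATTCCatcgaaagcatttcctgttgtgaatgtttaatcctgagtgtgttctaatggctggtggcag

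The chains of type I collagen, the most abundant fibrillar collagen of connective tissue, differed in their listed peaks. *Col1a1* (chr11:94936224-94953042) had 4 gained peaks, with a score of 190 at the 5′ end, 69 and 72.5 at 20348 and 25087 bp upstream, and 112 at 5377 bp beyond the gene. The last of these was nearer to the TSS of *Hils1* (9099 bp) than to that of *Col1a1* (13126 bp), and lay 284 bp from the TSS of *Gm24877*. The upstream peak with a score of 72.5 was repeat sequence over 98.7% of its bases. *Col1a2* (chr6:4504814-4541544), which encodes the partner chain, had no listed peak, and its 5′ end was 204287 bp from the nearest gained peak. *Col3a1*, which encodes type III collagen of elastic tissues and vessels, had a gained peak with a score of 55.5 in intron 1, centred 1455 bp from an own TSS, and a lost peak with a score of 27.1 at 118035 bp upstream.

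The type V chains, which take part in starting fibrils of type I collagen, also differed. *Col5a1* had 5 gained peaks, with scores of 55.5 and 104 upstream and of 46.5, 63 and 99 in introns 25, 32 and 42, and none was within 3 kb of an own TSS. *Col5a3* had a single gained peak, 53 bp from its 5′ end, whose score of 228 was the highest of the fibrillar class. *Col5a2* had no listed peak, and its 5′ end lay 190180 bp from the nearest gained peak. Of the cartilage collagens, *Col2a1* had 1 gained peak with a score of 105, which was 2732 bp beyond the gene and nearer to the TSS of *Tmem106c*. *Col11a1* and *Col11a2* had none. *Col24a1*, another minor fibrillar collagen, had no gained peak and 1 lost peak with a score of 37.9 in intron 19.

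In the basement membrane class, gained peaks were found at *Col15a1* (4), *Col4a1* (3), *Col4a2* (2) and *Col18a1* (2), and 1 of them is shared by *Col4a1* and *Col4a2*. None of the 10 peaks of the class was within 3 kb of an own TSS, and the class had 0 lost peaks (0%, up to 32.4% of the 8 genes by the Wilson interval, beside 10.8% of all protein-coding genes). For genes with a lost peak, the fibrillar share was 27.3 points above that of the basement membrane class (-9.6 to 56.6), and the basement membrane share differed from the other share by -20 points (-39.1 to 14.3). The fibrillar and other shares differed by 7.27 points (-18.7 to 38.6). All 3 intervals include 0. *Col4a1* and *Col4a2* encode the most widespread chains of type IV collagen and are transcribed away from each other from a shared start region. The gained peak nearest to this start region was in intron 3 of *Col4a2*, 37337 bp from the 5′ end of *Col4a2* and 37316 bp from that of *Col4a1*, with a score of 60. A second peak in *Col4a2*, in intron 4, had a score of 107. The remaining peaks of *Col4a1* lay 45533 and 84944 bp beyond the gene, with scores of 58.5 and 37.5. *Col4a3*, *Col4a4*, *Col4a5* and *Col4a6*, which encode chains of specialised basement membranes such as that of the kidney glomerulus, had no listed peak.

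The peaks of *Col15a1* and *Col18a1*, whose products are basement membrane collagens that carry sugar chains, all lay 46012 bp or more from the 5′ end of the gene. *Col15a1* had gained peaks in introns 11 and 28, with scores of 46.5 and 43.5, and at 2454 and 4960 bp past the gene, with scores of 103.5 and 60.5. *Col18a1*, the source of the fragment endostatin, had a gained peak in intron 21 of 40, with a score of 138.5, and another 46012 bp upstream, with a score of 91. The type IV genes alone had 1.8 gained peaks per Mb (0.219 to 6.52) from 2 peaks within 10 kb of their bodies, below the 6.78 per Mb over all protein-coding genes. The strongest peak of the class and the peak nearest to the shared type IV start are shown, with capitals for the GC box and the NFY string.
*Col18a1*, intron 21, gained, chr10:77070275-77070425, minus strand: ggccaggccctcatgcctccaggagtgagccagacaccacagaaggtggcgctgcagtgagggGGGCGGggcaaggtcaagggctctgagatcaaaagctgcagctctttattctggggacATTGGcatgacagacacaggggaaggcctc
*Col4a2*, intron 3, gained, chr8:11350067-11350217, plus strand: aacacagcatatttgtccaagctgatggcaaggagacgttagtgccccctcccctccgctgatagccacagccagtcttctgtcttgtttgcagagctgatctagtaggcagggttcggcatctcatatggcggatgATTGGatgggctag

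Among the other collagens, the 4 transmembrane genes all had gained peaks, 19 in total, and had no lost peak. Over all protein-coding genes these shares were 37.4% and 10.8%. Their lengths were 45.8 kb (*Col17a1*), 141 kb (*Col13a1*), 294 kb (*Col23a1*) and 468 kb (*Col25a1*). Of all protein-coding genes under 50 kb, 30.7% had a gained peak and 5.93% a lost peak. The shares were 54.4% and 20.6% between 50 and 150 kb, and 73.3% and 42.9% at 150 kb or more. The density at the transmembrane genes was 14.6 gained peaks per Mb (8.16 to 24). Without *Col13a1* it was 8.06 (3.24 to 16.6), an interval that includes the 6.78 per Mb over all protein-coding genes. *Col13a1* (chr10:61838236-61979108) encodes a cell-surface collagen of adhesion sites and neuromuscular junctions. It had 10 gained peaks, a number that 55 protein-coding genes reached or passed. A peak with a score of 174 lay 34 bp from its 5′ end, and the strongest, with a score of 273, was in intron 5 of 40 and had the highest score of any collagen peak. Others were in intron 1 (196 and 84), intron 2 (124.5 and 103.5) and intron 19 (95), 7209 bp beyond the gene (101.5), and 40470 and 40927 bp upstream (77.5 and 118). All 10 scores were above the median of the gained list.

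The strongest collagen peak, in intron 5 of *Col13a1*, is shown with its NFY string in capitals.
*Col13a1*, intron 5, gained, chr10:61906337-61906487, minus strand: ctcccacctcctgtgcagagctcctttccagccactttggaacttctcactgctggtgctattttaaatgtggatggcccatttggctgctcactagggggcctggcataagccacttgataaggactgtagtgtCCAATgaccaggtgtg

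*Col23a1*, another transmembrane collagen, had 5 gained peaks with scores between 38.5 and 75, in introns 2, 4, 7 and 21, and the last of them was 1902 bp from an internal own TSS. *Col17a1*, a collagen of the hemidesmosomes that hold epithelia to their base, had a peak in intron 13 (52), 1109 bp from an own TSS, and another 13599 bp upstream (125). *Col25a1* had a peak in intron 11 (40.5) and another 14421 bp upstream (43.5).

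The fibril-associated collagens had gained peaks at 3 of 9 genes (33.3%, beside 37.4% of all protein-coding genes). Lost peaks were also tied to 3 of the 9 (33.3%, beside 10.8%), and 1 of these 3 peaks lay within 10 kb of a gene body. *Col22a1*, known from the junction of muscle and tendon, had 4 with scores between 36 and 71.5, all intronic. *Col14a1* had gained peaks 27968 bp upstream (59.5) and 2075 bp beyond the gene (71.5), and *Col16a1* had 1 in exon 33 of 70 (85.5), 1524 bp from an internal own TSS. Of the beaded-filament collagens, 2 of 7 had gained peaks (28.6%): *Col6a6* with 3 of low score (24.5 to 38), and *Col6a3* with 2 that lay 21710 and 29805 bp beyond the gene (81.5 and 207.5). *Col6a1* and *Col6a2*, which encode the core chains of type VI collagen, had no listed peak. *Col7a1*, which encodes the anchoring fibrils of skin, had 3 gained peaks: the start-site peak shown above (77), 1 in intron 99 of 117 (62), and 1 with a score of 235 that was 3258 bp past the end of *Col7a1*, with the TSS of its neighbour *Ucn2* 2198 bp away. The network collagens *Col8a1* and *Col8a2* had 1 gained peak each (49 and 61.5), both nearer to the TSS of another gene, and *Col26a1* had 1 (50.5), in intron 3 and 167 bp from an internal own TSS.

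**Figure D4:**
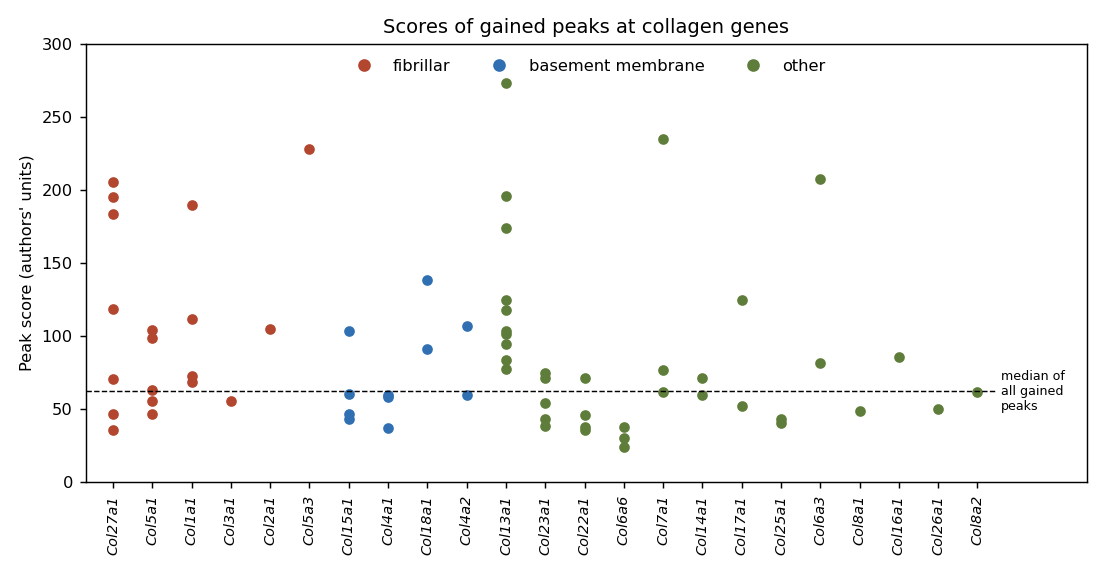
Score of every gained peak at the 23 collagen genes that had one, coloured by class, with the median of all gained peaks (62.5) as a dashed line. The highest points belong to *Col13a1* (273), *Col7a1* (235) and *Col5a3* (228), and the peaks of *Col6a6* and *Col25a1* all lie under the line. The scale of the score is not stated by the authors.

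The 66 gained collagen peaks had a median score of 71.5 (24.5 to 273), and 38 of them were above the median of the gained list. Fibrillar peaks had a median of 99, with 14 of 19 above it, basement membrane peaks 60.2 with 4 of 10, and other peaks 71.5 with 20 of 37. By place, 33 of the 66 were in introns, 5 of those in intron 1, 3 were in exons, 17 upstream and 13 downstream. For 8 peaks the nearest protein-coding TSS belonged to another gene, and 15 were tied to a collagen gene by the nearest protein-coding TSS alone. TSSs of noncoding genes were not used for this. The share within 3 kb of any protein-coding TSS was 18.2% (10.7 to 29.1), beside 22.9% of all gained peaks. With a window of 50 kb around genes it was 26.9%, above the share of the whole list. GC content was 57.1% ± 6.56 (SD over 66 peaks), beside 56.7% ± 8.55 over the gained list.

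The 9 lost collagen peaks belonged to 3 fibrillar and 5 other genes, and none was within 3 kb of a protein-coding TSS (0%, up to 29.9%, beside 10.1% of all lost peaks). Beside those of *Col27a1*, *Col24a1* and *Col3a1*, they were in intron 1 of *Col14a1* (38.6), in intron 21 of *Col28a1* (18.7), at 104130 and 192741 bp upstream of *Col8a1* (23.8 and 26.7), 186125 bp beyond *Col12a1* (35) and 25283 bp upstream of *Col19a1* (162.2). The *Col19a1* peak had the highest score of the 9, and 150 of its 151 bases aligned with the mitochondrial genome (99.3%). It lay 55 bp from the TSS of *Gm10222*, annotated as a pseudogene. It was the only peak of the lost list that matched the mitochondrial genome over at least 90% of its bases, and the gained list held 2. Mitochondrial DNA is open to Tn5, and the part of such reads in this peak was not tested. Without it, 8 lost peaks at 7 collagen genes were left, and 89.2% of the collagen peaks were gained.

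The lost peak of *Col14a1*, whose product binds fibrils in tissues under strain, is shown because it was the only lost collagen peak in a first intron, with a SOX string in capitals.
*Col14a1*, intron 1, lost, chr15:55315847-55315997, plus strand: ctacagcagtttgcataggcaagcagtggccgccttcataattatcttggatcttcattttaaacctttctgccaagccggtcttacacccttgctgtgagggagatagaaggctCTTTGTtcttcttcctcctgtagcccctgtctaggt

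Searched on both strands, 8 consensus strings were counted in the collagen peaks and in the whole lists. The NFY string CCAAT was in 25 of the 66 gained collagen peaks (37.9%, 27.1 to 49.9), beside 29.3% of all gained peaks. The GC box GGGCGG was in 17 (25.8%), beside 22.5%, and the CTCF string in 6 (9.09%), beside 5.45%. The GATA string AGATAAG was in 3 (4.55%), beside 5.45%, the AP-1 string TGANTCA in 4 (6.06%), beside 5.08%, and the SOX string ACAAAG in 4 (6.06%), beside 7.83%. The MEF2 string, CTA and TAG with any 4 bases between, was in 2 (3.03%), beside 3.86%, as was the TEAD string, beside 3.76%. For the NFY string the share over the whole list lies inside the collagen interval. In the 9 lost collagen peaks, the TEAD string was in 3 (33.3%, 12.1 to 64.6, at *Col3a1*, *Col8a1* and *Col27a1*), beside 7.43% of all lost peaks. The NFY string was also in 3 (33.3%, 12.1 to 64.6, at *Col8a1*, *Col12a1* and the mitochondrial-like peak of *Col19a1*), beside 12.4%. The MEF2, AP-1 and SOX strings were in 1 each (11.1%, 1.99 to 43.5), beside 3.1%, 9% and 16.2%, and the peak with the MEF2 string was again that of *Col19a1*. The GATA, GC box and CTCF strings were in 0 (0%, up to 29.9%), beside 4.92%, 2.95% and 6.99%. A peak can hold several strings, and none of the 8 strings contains another.

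Genes whose products fold, modify, cut and cross-link collagen were counted by the same rule. Of 32 such genes, 14 had a gained peak (43.8%, beside 37.4% of all protein-coding genes) and 4 a lost peak (12.5%, beside 10.8%). *Colgalt1*, which adds galactose to collagen, had 4 gained peaks with a highest score of 581.5 and none within 3 kb of an own TSS. Gained peaks within 3 kb of an own TSS were found at 7 of the 32 genes (21.9%, beside 12.3% of all protein-coding genes): the lysyl hydroxylase *Plod1*, *P3h3* and *Crtap* of the prolyl 3-hydroxylation machinery, the procollagen N-proteinases *Adamts2* and *Adamts3*, and the cross-linking enzymes *Loxl3* and *Loxl4*. The highest scores at the last 3 were 206.5, 163.5 and 182.5. *P3h2* had 3 gained and 3 lost peaks. Lost peaks were also at *P4ha2*, *Plod2* and *Plod3*, with a highest score of 761.5 at *Plod3*. The collagen chaperone *Serpinh1*, the prolyl 4-hydroxylase genes *P4ha1* and *P4hb*, the procollagen C-proteinase *Bmp1* and the lysyl oxidase *Lox* had no listed peak.

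The lists hold differences and not levels, so the heart label could not be checked against the level of any marker. By the same rule, which found gained peaks at 37.4% and lost peaks at 10.8% of all protein-coding genes, gained and lost peaks were at 5 and 0 of 8 cardiomyocyte marker genes, 4 and 4 of 7 epicardial genes, and 4 and 4 of 10 genes of cushion mesenchyme and fibroblasts. They were at 5 and 2 of 6 endothelial and endocardial genes, 4 and 1 of 6 cartilage genes, and 1 and 4 of 5 erythroid genes. The part of cell type shares in the collagen peaks was not tested.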

How the data were processed

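ATAC-seq was performed on 4 *Chd4-CMko* and 4 WT samples of pooled E10.5 hearts. Per the labels and the study's methods, the authors used BWA-MEM for alignment to mm10, HOMER (4.10.3) for peak calling and ChIPseeker (1.20.0) for annotation. For differential peaks, the cutoff stated in the methods was a 2-fold change. Read filters, duplicates, a Tn5 shift and how samples were combined are not given in the sources used here, and each can change which peaks are listed. The value deposited by the authors is a peak score of unstated scale, so scores of the 2 lists were not compared, except in 1 alternative with a common score limit, which assumes a shared scale. The study's methods state a sequencing depth per sample, but the depth that each sample reached is unknown, because the lists carry no value per sample.

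Peaks were tied to genes with GENCODE M21 and the GRCm38 genome, using Python (3.11.15), numpy (2.4.6), pandas (2.3.3), scipy (1.17.1), pysam (0.24.0) and Biopython (1.88). The distance was measured from the peak centre to the TSS of any transcript of a protein-coding gene. Shares have Wilson, differences Newcombe and densities exact Poisson 95% intervals. The scripts were tested on simulated data. Genes named with values were those with a peak within 3 kb of an own TSS, with a lost peak, among the 5 with the most gained peaks (ties included) or with 1 of the 5 highest gained scores, and every fibrillar and basement membrane gene. Others named in the text were chosen after their values were seen. The members, gene lists and strings were chosen with earlier results of these data known. Alternatives covered score limits, promoter width, TSS choice, the window around genes and class definitions.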

Additional observations from a re-analysis of the deposited data

How the results depend on the processing

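Of 90 values recomputed under an alternative, 77 stayed within the limits set for them and 13 moved. The limits were wide, and values inside them could change. A 50 kb window gave 93 gained peaks at 30 collagen genes, beside 66 at 23 in the main count. Peaks at or above the median score of their own list left 16 genes with a gained peak. The promoter share of the gained collagen peaks (18.2%) stayed within its interval but passed that of the whole list (22.9%) with a 50 kb window (26.9%). Keeping only peaks at or above the median score of their own list left 38 gained and 4 lost peaks at collagen genes, 4 genes with a lost peak, 8 other collagens with a gained peak, 6 genes with a gained promoter peak and 4.7 gained peaks per Mb. A common score limit for both lists, at the median of the lost list (36.8), assumes a shared scale that is not stated. The median of the gained list is higher (62.5), so the limit removes a larger part of the lost list. It left 4 lost peaks at 4 genes and a gained share of 93.9%. Genes with a gained promoter peak numbered 6 with a promoter of 1 kb and 6 with 1 TSS per gene, and a promoter of 10 kb gave 3 genes with a lost promoter peak. Taking type IV alone as basement membrane left 2 genes of that class with a gained peak. By construction, fewer peaks, genes or start sites enter these counts, except with the wider 10 kb promoter and 50 kb window. Leaving out the peaks that match the mitochondrial genome, or *Col13a1*, was added after seeing the data.

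Counts this small (9 lost peaks, 8 basement membrane genes) set wide intervals. Depth cannot be read from the lists, so the absence of a listed peak says nothing about whether a gene holds accessible sites. Leaving out a replicate could not be run. No paired analysis was possible because the lists carry no value per sample.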
